A study of Mus musculus with 4 samples.

Results

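The genes described are 10 muscle genes measured in mouse eye cups, chosen by name from the 22863 genes of the RNA-seq table. They are 7 skeletal and extraocular myosin heavy chain genes (Myh1, Myh2, Myh3, Myh4, Myh7, Myh8 and Myh13) and 3 other contractile genes, namely Acta1, Ckm and Tnnt3. All 10 were found in the table. The study asked how the circadian clock and light shape rod dark adaptation, and the RNA-seq compared 2 subjective day samples with 2 objective day samples. All mice were C3H/f+/+ (strain label C3H), which make melatonin, and no allele or treatment differed between the conditions. Subjective day mice were taken at CT 6 (6 h after scheduled lights-on) after 18 h of darkness by the Methods, although another passage of the study gives a longer time. Objective day mice were taken at ZT 6 (6 h after lights-on) and kept in the dark for 1 h. Each sample pooled 4 eyes, those of 1 female mouse with those of 1 male mouse. The ages of the mice are not given in the sources used here. The anterior eye and lens were removed, and the labels name posterior sclera, choroid, retinal pigment epithelium (RPE) and retina as the tissue. Muscle is not among them.

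Skeletal muscle contracts when myosin heads of the thick filament pull on actin of the thin filament. The myosin heavy chain is the motor, and the gene that a fibre uses for it sets much of its speed. Extraocular muscles attach to the sclera and turn the eyeball. They are known for mixing many heavy chains, among them embryonic and perinatal chains that limb muscle gives up after birth and a chain of their own, Myh13.

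The values are read counts adjusted by the authors to a common library size, called adjusted counts here. They summed to between 33278417 and 35236783 per sample, and the unadjusted sequencing depth cannot be read from them. The 10 muscle genes together held 0.162% and 0.183% of the total in the subjective day samples 1 and 2, against 0.158% and 0.181% in the objective day samples 1 and 2. Retina and RPE were present by their markers, with Gnat1, the rod transducin subunit, between 584720 and 761670 and Rpe65, the RPE isomerase, between 5120.7 and 8708.2. In bulk tissue, fewer muscle fibres and less RNA per fibre cannot be told apart. Because each sample is a pool, p-values rest on the spread between pools, which limma draws toward its trend over all genes, and not between single mice.

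The heavy chain genes are close relatives, which bears on how reads were assigned. In GRCm38, 6 of the 7 lie on the plus strand of chromosome 11 within 293 kb. In order they are Myh3 (chr11:67078300-67102291), Myh2 (chr11:67171027-67197517), Myh1 (chr11:67200052-67224575), Myh4 (chr11:67238029-67260446), Myh8 (chr11:67277124-67308634) and Myh13 (chr11:67321658-67371586). Myh7 lies apart on the minus strand (chr14:54970684-54994626). Coding sequences were 91.0% identical between Myh1 and Myh2 and 90.1% between Myh1 and Myh4, while the lowest identity was 75.8%, between Myh7 and Myh13. The next sequence is shown because a 50-base read that falls inside it cannot be assigned to 1 of 5 genes. It is a coding run of 74 bases found without a mismatch in Myh1, Myh2, Myh4, Myh8 and Myh13, here at its place in exon 14 of Myh1 (chr11:67206531-67206604, plus strand, GENCODE M21). No base is in capitals, because all 74 are shared.
Myh1, Myh2, Myh4, Myh8 and Myh13: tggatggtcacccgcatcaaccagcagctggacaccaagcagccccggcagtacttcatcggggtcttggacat
Of the 50-base stretches of the longest transcript, 32.1% in Myh1 and 28.9% in Myh2 also occurred in another gene's transcripts. The share was 28.2% in Myh7, where Myh6, the cardiac chain beside it, held 22.2%. It was 21.4% in Myh8, 18.9% in Myh4, 8.45% in Myh13 and 4.81% in Myh3. Values of Myh1, Myh2, Myh4, Myh7 and Myh8 are therefore less certain than those of Myh3 and Myh13. The libraries were made without a step that marks strand, and antisense genes share exonic bases with 4 of the genes. These were 515 bases of Myh1 with Myhas, 237 of Myh2 with 9430073C21Rik, 451 of Ckm with A930016O22Rik and up to 523 of Myh7 with Gm31251.

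Upstream of their start sites, 4 of the chromosome 11 genes also share sequence. RefSeq promoter windows (GRCm38.p6) were held for 9 of the 10 genes. The stretches below lie within the 250 bases before the start and are shown because the same pair of strings stands in genes whose levels differ widely. Capitals mark TCAAATTAT first and TTCTAATTATATCC second.
Myh4 (chr11:67237620-67237672): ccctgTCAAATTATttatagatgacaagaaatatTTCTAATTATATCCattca
Myh1 (chr11:67199881-67199960): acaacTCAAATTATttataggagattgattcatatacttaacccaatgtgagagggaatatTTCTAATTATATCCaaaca
Myh2 (chr11:67170849-67170920): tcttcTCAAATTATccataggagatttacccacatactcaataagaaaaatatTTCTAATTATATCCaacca
Myh8 (chr11:67277015-67277088): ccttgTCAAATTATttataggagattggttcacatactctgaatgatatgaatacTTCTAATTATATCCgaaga
On both strands of all 32851 promoter windows, TTCTAATTATATCC occurred in 4, which are these 4 genes. TCAAATTAT occurred in 57 windows, or 0.174%. The strings were chosen by comparing these promoters with each other. On either strand, the TATA box letters TATAAA stood in 5 of the 9 windows (Myh1, Myh3, Myh4, Myh8 and Acta1) and in 12.4% of all windows. On the gene's own strand the nearest began 32, 29 and 31 bases before the start in Myh1, Myh3 and Myh4. It began 7 bases before the start in Acta1, and Myh8 had none on that strand. The E-box CANNTG, the letters that myogenic factors such as MyoD bind, stood in 7 of the 9 and in 66.2% of all. The MEF2 motif stood in Myh1, Myh4 and Myh8 and in 2.92% of all, and the CArG box stood in Acta1 and Myh4 and in 1.47% of all. The share of windows describes letters only and names no bound factor.

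Levels between genes were compared per kilobase of the longest transcript, as adjusted counts per kilobase. Among the heavy chains, fast chains led. Myh4, the chain of the fastest limb fibres (type IIB), stood at 2691 ± 488 per kilobase (SD, n = 4 samples). Myh1, the type IIX chain, stood at 1040 ± 45.9, and Myh2, the type IIA chain, at 509 ± 77.5. These 3 made up between 87.1% and 89.8% of the summed heavy chain level in the 4 samples. Myh3, the embryonic chain, followed at 262 ± 100.04 and Myh13, the extraocular chain, at 192 ± 109. Myh7, the slow chain of type I fibres and heart, stood at 52.4 ± 9.83 and Myh8, the perinatal chain, at 43.2 ± 6.91. The ranges of Myh4, Myh1, Myh2 and Myh3 over the 4 samples did not overlap, so this order held in every sample. Myh3 and Myh13 overlapped, as did Myh13 and Myh7 and also Myh7 and Myh8, and in each of these pairs the order turned in 1 of 4 samples. From Myh8 to Myh4 the mean level spanned 62.3-fold.

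As a share of the heavy chain sum, Myh4 took 50.7% and 62.5% in subjective day samples 1 and 2, against 56.6% and 53.6% in objective day samples 1 and 2. Myh13 took 5.07%, 5.68%, 4.05% and 1.05% in the same order. Myh3 took 5.63%, 3.03%, 5.10% and 8.51%. Myh3 exceeded Myh13 in 3 of 4 samples, and objective day sample 2 held both the highest share of Myh3 and the lowest of Myh13. The summed level itself was 4514 and 5438 adjusted counts per kilobase in subjective day against 4488 and 4720 in objective day.

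**Figure D1:**
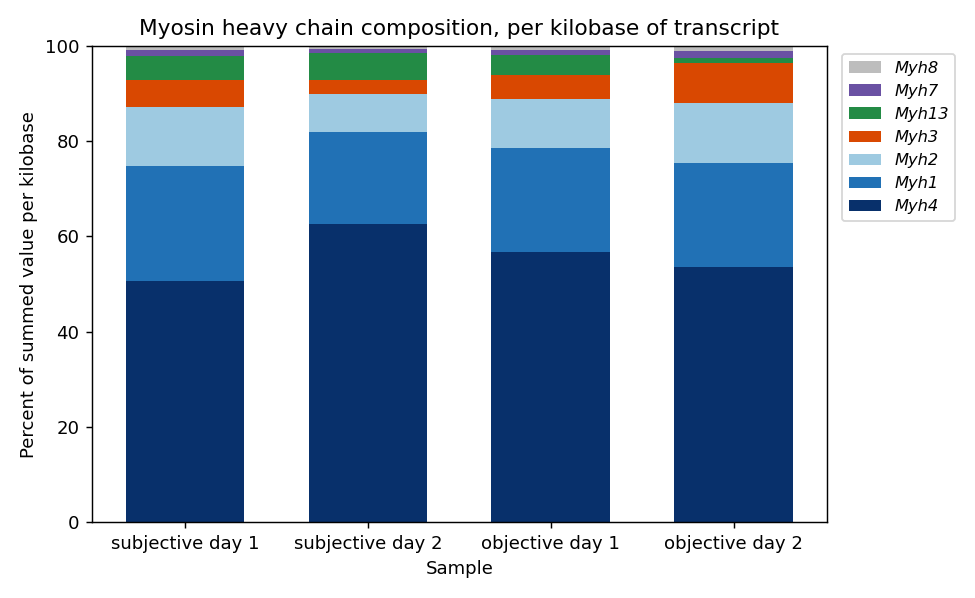
Stacked bars give each myosin heavy chain as a percent of the summed adjusted count per kilobase of transcript in each of the 4 samples. Myh4, Myh1 and Myh2 fill between 87.1% and 89.8% of every bar, and the Myh13 segment shrinks to 1.05% in objective day sample 2 where Myh3 reaches 8.51%.

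The other 3 genes stood higher per kilobase than most heavy chains. Tnnt3, fast troponin T, which anchors the troponin complex to tropomyosin on the thin filament, had 9625 ± 641 adjusted counts per kilobase (SD, n = 4 samples). Acta1, the skeletal actin of the thin filament, had 8191 ± 940.1. Ckm, the muscle creatine kinase that restores ATP from phosphocreatine, had 2898 ± 190.4. Tnnt3 and Acta1 overlapped in range, as did Ckm and Myh4. The order of Tnnt3 and Acta1 also turned when lengths were taken over all exons of the gene, with 6561 for Tnnt3 and 7711 for Acta1.

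Between objective and subjective day, none of the 10 muscle genes was called as changed. Among the 17784 genes tested by limma on the log2 scale, 1514 were called at an adjusted p under 0.05, which is 8.51%, and 1325 of these were lower in objective day. Of the 10 muscle genes, all 10 were tested, 0 were called by limma and 1, Myh13, had an unadjusted p under 0.05, which 25.4% of all genes tested had. Their median log2 fold change was -0.015 beside 0.015 over all genes tested, with 5 genes below 0 and 5 above. With the GC trend removed the median was -0.111 beside 0.021, and with 1 sample left out it ran from -0.133 to 0.073. The 2 conditions did not overlap in 2 of the 10 genes, Myh1 and Myh13, both lower in objective day, beside 56.1% of all genes tested. In 9 of the 10, samples of the same condition differed by more than the estimated difference between conditions, and Myh1 was the exception. With 2 samples against 2, an exact two-sided permutation test of 1 gene cannot give a p under 0.333, so none is given. Where 1 sample is left out below, its condition holds a lone sample that is assumed to vary like the other condition's pair. A gene's own spread then comes from that pair, and limma draws it toward a prior over all genes. That prior weighed 5.33 degrees of freedom in the reported fit and between 9.48 and 10.6 in these fits. A smaller p can follow from dropping the spread of a pair and is no added support.

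Myh13 showed the largest difference of the 10. Its adjusted count was 1387 and 1872 in subjective day samples 1 and 2, against 1102 and 299 in objective day samples 1 and 2. Both objective day samples lay below both subjective day samples, but objective day sample 1 was closer to subjective day than to its partner. The higher objective day sample stood 3.69-fold above the lower, and the subjective day samples differed 1.35-fold. The estimated log2 fold change was -1.49 ± 0.51 (SE), with a 95% interval from -2.68 to -0.30, and limma's adjusted p was 0.122. The size rested on objective day sample 2. Without it the log2 fold change was -0.55, and without objective day sample 1 it was -2.43. Without subjective day sample 1 it was -1.70, and without subjective day sample 2 it was -1.27. Each of these fits took the gene's own spread from 1 pair and the rest from limma's prior over all genes. The 3.69-fold gap between the objective day samples did not enter the fit without sample 1 of that condition. Over 15 alternative fits, these 4 included, Myh13 was lower in objective day in every one and called in 6. As the conditions did not overlap, leaving out 1 sample could not turn the sign. The calls came from fits with a lone sample, fits with samples paired by replicate number, and fits scaled to the muscle lists. The paired fits gave adjusted p = 0.0416, and 0.0118 with the GC trend removed (limma), but the labels give no ground for pairing. The muscle scaling did not use a gene's own spread. Of the 13216 tested genes with a mean of at least 100, 0.151% differed more between the objective day samples than Myh13 did.

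**Figure D2:**
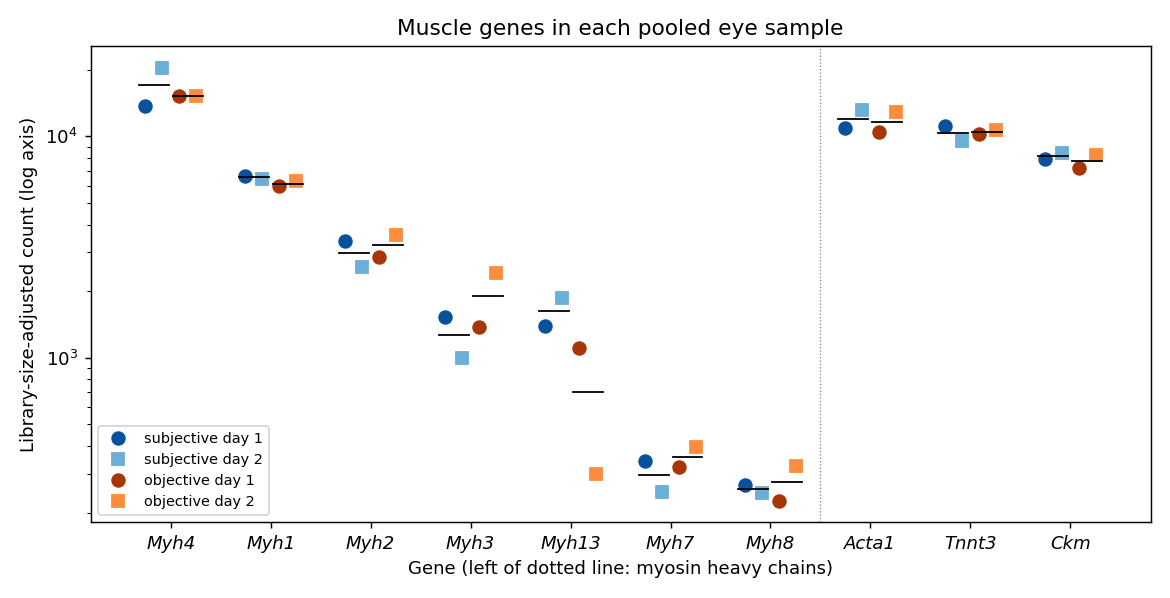
Points give the adjusted count of each of the 10 muscle genes in each sample on a log axis, and short black lines give the mean of the 2 samples of a condition. Myh13 has its low point of 299 in objective day sample 2, while Myh1, Tnnt3 and Ckm sit in tight groups.

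Myh3 and Myh8, the developmental chains, had higher means in objective day without passing the test. Myh3 was 1532 and 995 in subjective day against 1381 and 2422 in objective day. The conditions overlapped, since objective day sample 1 lay below subjective day sample 1. Its log2 fold change was 0.57 ± 0.27 (SE), with a 95% interval from -0.075 to 1.21 and an adjusted p of 0.246 by limma. Myh3 passed the threshold only with a condition reduced to 1 sample or when scaled to the muscle lists. That scaling was added after seeing the data and did not use a gene's own spread. The fit without subjective day sample 1 gave 0.88, and the fit without objective day sample 1 gave 0.97. Leaving out subjective day sample 2 gave 0.26, and leaving out objective day sample 2 gave 0.16. Myh8 was 266 and 245 in subjective day against 226 and 324 in objective day. The objective day samples enclosed both subjective day samples, and the log2 fold change was 0.087 ± 0.17, with an interval from -0.32 to 0.49 and an adjusted p of 0.795.

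The slow chain Myh7 was 344 and 247 in subjective day against 321 and 394 in objective day. The conditions overlapped, and the log2 fold change was 0.29 ± 0.18 (SE, interval from -0.12 to 0.70, limma adjusted p = 0.351). Without subjective day sample 1 it was 0.53, and without subjective day sample 2 it was 0.050.

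The fast chains had estimates of at most 0.14 in size. Myh4 was 13781 and 20463 in subjective day against 15292 and 15213 in objective day. Both objective day samples fell between the subjective day samples, of which the second was 1.48-fold above the first. The log2 fold change was -0.14 ± 0.16 (SE, interval from -0.52 to 0.24, limma adjusted p = 0.641), and its sign hung on the subjective day samples. Without sample 1 of that condition the log2 fold change was -0.42, and without sample 2 it was 0.15. Myh1 was 6615 and 6444 in subjective day against 5960 and 6275 in objective day. It varied little, with 79.8% of tested genes of mean at least 100 spanning a wider range over the 4 samples. Its log2 fold change was -0.094 ± 0.061, with an interval from -0.24 to 0.048 and an adjusted p of 0.378. Myh2 was 3372 and 2579 in subjective day against 2839 and 3604 in objective day. Its conditions overlapped in part, and the log2 fold change was 0.12 ± 0.15, with an interval from -0.23 to 0.46 and an adjusted p of 0.667.

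Acta1, Ckm and Tnnt3 had the narrowest intervals after Myh1. Acta1 was 10922 and 13160 in subjective day against 10446 and 12848 in objective day. In both conditions sample 2 was the higher, and the log2 fold change was -0.049 ± 0.12 (SE, interval from -0.33 to 0.24, limma adjusted p = 0.837). Ckm was 7882 and 8398 in subjective day against 7236 and 8271 in objective day, again with sample 2 the higher in each. Its log2 fold change was -0.073 ± 0.080, with an interval from -0.26 to 0.12 and an adjusted p of 0.620. Tnnt3 was 11153 and 9512 in subjective day against 10243 and 10636 in objective day. Its objective day samples lay inside the subjective day range, and the log2 fold change was 0.019 ± 0.086, with an interval from -0.18 to 0.22 and an adjusted p of 0.915. These intervals leave room for a change of up to 1.18-fold in Acta1, 1.17-fold in Tnnt3 and 1.08-fold in Ckm upward, and down to 0.793-fold, 0.881-fold and 0.834-fold of the subjective day level.

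**Figure D3:**
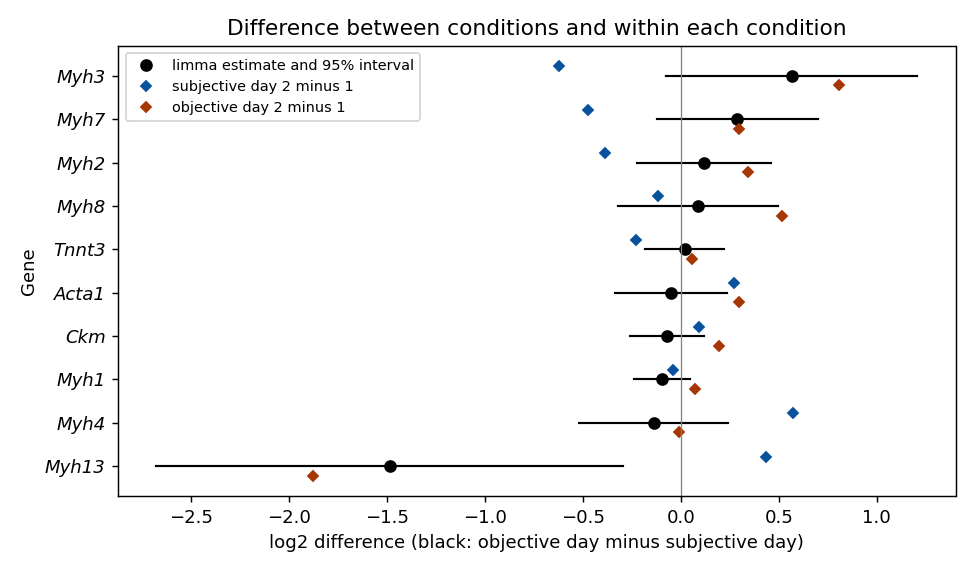
Black points give limma's log2 fold change of objective over subjective day with its 95% interval for each of the 10 muscle genes, and diamonds give the log2 difference between the 2 samples of one condition (sample 2 minus sample 1). Myh13 at -1.49 has the only interval that excludes 0, and its objective day samples differ from each other by -1.88.

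The heavy chains did not vary together between samples of a condition. From sample 1 to sample 2, Myh2, Myh3, Myh7 and Myh8 were lower in subjective day, by -0.39, -0.62, -0.48 and -0.12 on the log2 scale. The same 4 genes were higher in objective day sample 2 than in sample 1, by 0.34, 0.81, 0.29 and 0.52. Myh1 and Tnnt3 had these signs too, with differences of at most 0.23 in size. Myh4 and Myh13 went the other way in both conditions, with 0.57 and 0.43 in subjective day but -0.0075 and -1.88 in objective day. In all, 6 of the 10 genes were lower in subjective day sample 2 and higher in objective day sample 2 than in the partner sample, beside 18.6% of all genes tested. In a list of 8 slow-fibre filament genes, 6 had these signs, and in a list of 7 fast-fibre filament genes, 5 had them. The count was 8 of 14 scaffold genes, 7 of 14 calcium-handling genes, 4 of 8 developmental and other myosin genes, 5 of 11 energy genes, 2 of 7 neuromuscular genes and 1 of 7 myogenic regulators, and 38 of 76 over all the lists. Tpm3 and Mybpc1 had the highest means of the slow list. Tpm3, slow tropomyosin, was 1898 and 1708 in subjective day against 1607 and 1804 in objective day, and Mybpc1, slow myosin binding protein C, was 1872 and 1926 and then 1742 and 2125. Replicate numbers have no order of their own, so these values describe samples and not a trend.

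**Figure D4:**
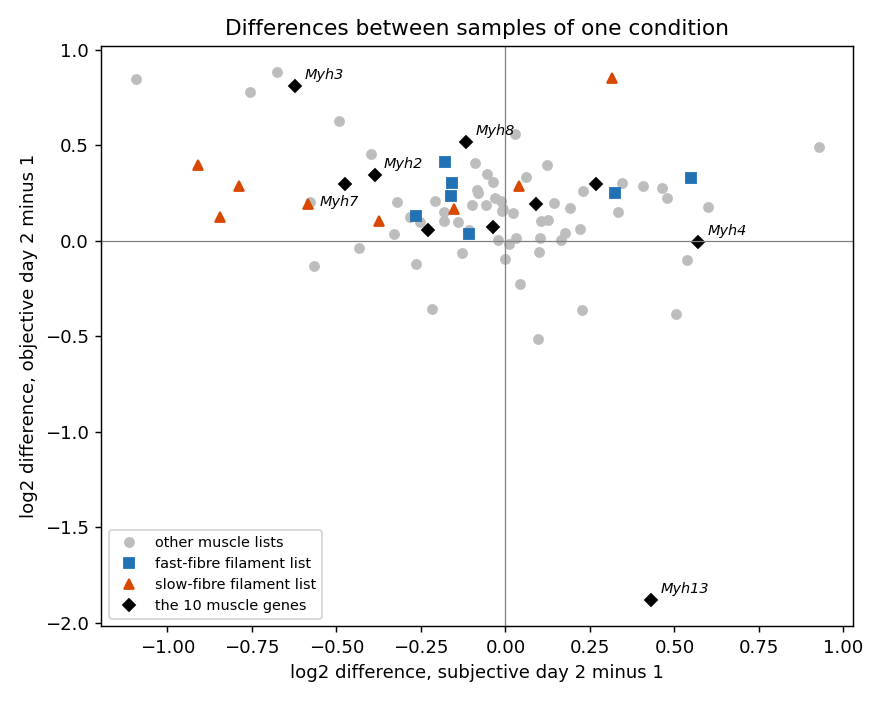
Each point is a gene of the muscle lists, with the log2 difference between the subjective day samples on the x axis and between the objective day samples on the y axis (sample 2 minus sample 1). Myh3, Myh7, Myh2 and Myh8 lie in the upper left with most slow-fibre genes, and Myh13 is the lowest point, at 0.43 and -1.88.

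Other genes of the contractile apparatus were read from 8 lists of 80 genes in all, of which 76 were tested. Of the 76, 5 were called by limma (6.58%, beside 8.51% of all genes tested), 3 lower and 2 higher in objective day, and the median log2 fold change was 0.011. None of the 7 fast-fibre filament genes, the 8 slow-fibre filament genes, the 11 energy genes or the 7 tested myogenic regulators was called. In these lists 0 genes had an unadjusted limma p under 0.05, beside 25.4% of all genes tested. Myl1 and Tpm1, a myosin light chain and a tropomyosin of fast fibres, had log2 fold changes of -0.11 and 0.0051. Pygm, muscle glycogen phosphorylase, and Mb, the oxygen store myoglobin, had 0.10 and 0.15. Mef2c, a muscle transcription factor also made in other tissues, had -0.13.

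The 5 called genes came from 4 lists. Trdn, the triadin that ties the calcium release channel to its calcium store, was 1303 and 1183 in subjective day against 649 and 694 in objective day. This was a fall to 0.541-fold (log2 fold change -0.89 ± 0.081, SE, limma adjusted p = 0.00554). Xirp2, an actin-binding protein of the fibre ends and Z-discs, fell by 0.44 on the log2 scale (adjusted p = 0.0146). Actc1, cardiac actin, fell by 0.31 (adjusted p = 0.0472). Myh7b, a slow-type heavy chain that is also known outside muscle, rose by 0.40 (adjusted p = 0.0240), and Lrp4, the agrin receptor of the neuromuscular junction, which neurons also make, rose by 0.45 (adjusted p = 0.0115). In each of the 5 genes the conditions did not overlap, as in 24 of the 76 list genes and 56.1% of all genes tested. Since the 5 were picked by the call in these same samples, this adds no support. Trdn and Xirp2 are low in GC content, at 36.8% and 42.2%, whereas the 10 muscle genes lie between 52.6% and 57.0%. With each sample's trend over GC content removed, Trdn stood at -0.22 (adjusted p = 0.476) and Xirp2 at -0.17 (adjusted p = 0.322). In the same fit Actc1 stood at -0.38 (adjusted p = 0.0662), Lrp4 at 0.35 (adjusted p = 0.0845) and Myh7b at 0.27 (adjusted p = 0.142), so each of the 5 calls was lost. The Actc1 call was also lost under median-ratio scaling (adjusted p = 0.051) and with no filter on low values (adjusted p = 0.0526). With 1 sample left out, each fit had 1 pair for a gene's own spread, beside limma's prior over all genes. Trdn and Lrp4 passed the threshold in all 4 of these fits. Xirp2 was lost without objective day sample 1 (adjusted p = 0.0542), and Myh7b without objective day sample 1 or 2 (adjusted p = 0.141 and 0.0902). Actc1 was lost without subjective day sample 2, objective day sample 1 or objective day sample 2 (adjusted p = 0.103, 0.295 and 0.105). The 2 most abundant scaffold and calcium-handling genes were not called, with Ttn, the giant spring of the sarcomere, at -0.25, Tpm2, a tropomyosin, at 0.046, Atp2a1, the calcium pump of fast fibres, at 0.020 and Atp2a2, the pump of slow fibres and many other cells, at -0.032. Chrnb1, a subunit of the acetylcholine receptor and the second most abundant gene of the neuromuscular list, stood at -0.12.

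Markers of neighbouring tissues varied between samples more than the muscle genes in several lists. Surface epithelium keratins were lower in objective day, with 5 of 5 tested genes called and summed adjusted counts of 12076 and 12158 in subjective day against 3437 and 5969 in objective day. Adipocyte markers, which fat of the orbit would carry, summed to 2944 and 5832 in subjective day against 5201 and 2749 in objective day, with 0 of 6 called. Lens markers summed to 51788 and 6081 and then to 57564 and 14491, with 0 of 7 called. Tendon and scleral fibroblast markers summed to 10768 and 7684 and then to 11143 and 10204, with 0 of 8 called. Smooth muscle markers summed to between 11561 and 13456, with 0 of 8 called, and their defining actin Acta2 was present at 1081 to 1442. Schwann cell markers ranged from 3401 to 4510, with 0 of 5 called. Of the photoreceptor markers, 0 of 6 were called. RPE markers ranged from 55823 to 67824, with Rpe65 called lower among 5 tested. Best1, an RPE channel, was listed at 0 in subjective day sample 1, and no other listed marker was at 0 in any sample. Blood markers were 3043 and 3141 in subjective day against 4289 and 4552 in objective day, with 3 of 4 called higher. The sum over the 10 muscle genes was 57254 and 63915 in subjective day against 55047 and 60286 in objective day, so sample 2 was the higher in each condition. The adipocyte sum was also higher in subjective day sample 2 but lower in objective day sample 2, where Myh13 was lowest. The part of these tissues in the muscle gene differences was not tested.

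**Figure D5:**
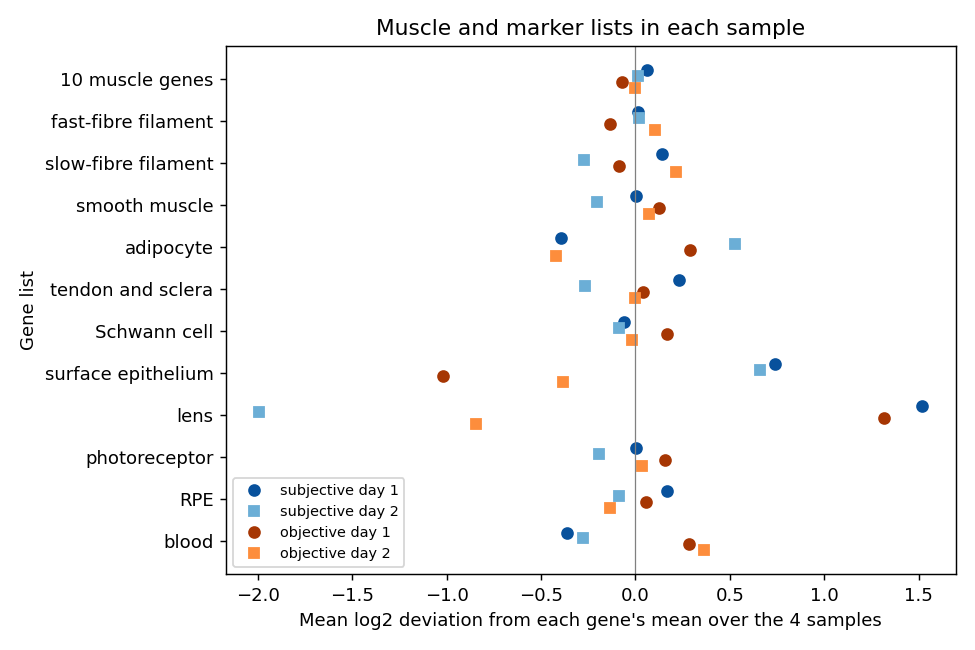
Points give, for each gene list, the mean over its tested genes of the log2 deviation from the gene's mean over the 4 samples. The mean over the 10 muscle genes stays between -0.073 and 0.063, whereas lens markers run from -1.99 to 1.52 and surface epithelium from -1.02 to 0.74. Single muscle genes vary more than their mean, with Myh13 from -1.68 to 0.96 and Myh3 from -0.59 to 0.69.

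The genes whose profile over the 4 samples lay nearest to the mean profile of the 10 muscle genes were Fzd9, Cys1, Naaa, Asb1, Taf1b, Med17, Ankrd46, Gm12892, Lsm6 and Lrrc51. Their Euclidean distances on the log2 scale ran from 0.012 to 0.027, and 0 of the 10 belong to a muscle list. The mean profile was nearly flat, from -0.073 to 0.063, and Myh13 lay 2.00 from it, Myh3 0.92 and Myh1 0.020.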

How the data were processed

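RNA-seq of 4 mouse eye samples was analysed from 1 table with values per gene and sample. The authors read base calls with CASAVA 1.8, aligned 50-base reads with Tophat 2.0.9 and Bowtie2 2.1.0 to the mouse genome with Ensembl release 72, counted with HTSeq and compared conditions with edgeR. The deposited signal is the gene count that the authors adjusted to a common library size. It is fractional, so whole reads and depth cannot be recovered, and the adjustment method and strand setting are not given in the sources used here. The deposited log2 fold change, log2 CPM, p-value and FDR columns hold the authors' own comparison and were not used. A total of 0 sample columns were left unused.

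The test was limma (version 3.58.1, R version 4.3.3), run on log2(value + 1) for every gene that reached 10 in 2 or more samples, with a mean-dependent variance prior and Benjamini-Hochberg adjustment over all genes at 0.05. All p-values and 95% intervals come from limma, and fold changes are on the log2(value + 1) scale, which understates changes of low genes. With 2 samples a condition, the number of samples limits precision. Alternatives covered scaling, filter, pseudocount, variance prior, GC trend (loess, span 0.3), replicate block and each sample left out. Scaling to the muscle lists was added after seeing the data. Lengths, exons and coding sequences came from GENCODE M21 (GRCm38), a later annotation of the authors' assembly, and coding sequences were aligned with MAFFT 7.526. Composition used the longest transcript or, as an alternative, the union of exons. Figures were drawn with matplotlib 3.10.9. The muscle genes and lists were chosen with earlier results of these data known. Outside the 10 genes, the rule named every called gene and the 2 most abundant genes of each muscle and marker list, Rpe65 as a tissue check, and the 10 genes nearest the mean profile, and marker lists are mostly given as sums. Some genes that the rule names are not reported here.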

Additional observations from a re-analysis of the deposited data

How the results depend on the processing

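With 2 pools a condition, single genes hang on single samples. Under median-ratio scaling, other filters and other pseudocounts, 0 of the 10 muscle genes were called, as in the reported fit. Of the list genes, 4 in place of 5 were called under median-ratio scaling and with no filter, with Actc1 lost. Under the alternatives that follow, counts of calls changed by more than 1.5 times for 1 or more of the 3 groups (muscle genes, list genes and all genes), and the cause was not tested. Without the trend in the variance prior, 0 genes of all and 0 of the lists were called. With the GC trend removed, 211 of all genes and 0 of the lists were called, 52.6% of the 211 lower beside 87.5% of the reported 1514. The replicate block called 1 muscle gene (Myh13, adjusted p = 0.0416, limma), 8 list genes and 3613 of all. The labels give no ground for pairing, and same-numbered samples' deviations correlated at 0.319 over genes, which is a single value from 2 pairs. The GC trend with the replicate block called 4 muscle genes (Myh13, Myh1, Ckm and Acta1, all lower), 6 list genes, among them Actc1, Lrp4 and Myh7b but not Trdn or Xirp2, and 1626 of all (9.27%), 43.8% of them lower. Scaled to the muscle lists, added after seeing the data, 2 muscle genes (Myh3 and Myh13), 2 list genes and 944 of all were called, and with the block 1, 1 and 733. In these last fits the prior degrees of freedom were infinite, so a gene's own spread was not used and its p-values are not given.

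Leaving out 1 sample at a time gave between 0 and 4 muscle genes, between 2 and 12 list genes and between 674 and 2778 of all, highest without subjective day sample 1. In these fits the lone sample of a condition is assumed to vary like the other pair. The sign changed for 6 muscle genes. Over the samples left out, the log2 fold change of Myh2 ran from -0.076 to 0.31, with -0.055 without objective day sample 2. That of Myh4 ran from -0.42 to 0.15, of Myh8 from -0.17 to 0.35, of Acta1 from -0.20 to 0.0998, of Ckm from -0.17 to 0.024 and of Tnnt3 from -0.096 to 0.13. Tnnt3 was also at -0.063 with the GC trend removed, with or without the replicate block. With that trend removed every muscle gene's estimate was lower than in the reported fit, and their median was -0.111 in place of -0.015. Myh1, Myh3, Myh7 and Myh13 kept their sign under all 15 alternatives. Per kilobase of all exons, Myh7 and Myh8 made up 0.831% and 0.491% of the heavy chain sum, below the 1.11% and 0.91% per longest transcript, because their exon unions are longer.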
